A study of Rattus norvegicus with 6 samples.

Results

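Axon guidance ligands and receptors are the secreted, membrane-bound and anchored cues that steer growing axons, together with the receptors that read them. The genes described here were taken from the deposited table by symbol. They are the semaphorins of classes 3 to 7, the plexins of classes A, B and D, both neuropilins, the Eph receptors and ephrins, the netrins with their Unc5 receptors, and the Slit proteins with their Robo receptors. This gave 66 of the 23800 features in the table, 61 of which carry its axon guidance pathway term, and 52 of the 66 had at least 1 FPKM (read fragments per transcript length and per library size, so that levels can be compared between genes) in at least 3 of the 6 samples and were tested. Membership went by symbol and not by level, but the set was proposed with earlier results of these data known.

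The tissue was the dorsal root ganglion, where sensory neurons have their cell bodies, of Sprague Dawley rats whose left tibia was injected with 10 µL of MRMT-1 cells, which derive from a rat mammary carcinoma. In the bone cancer pain group (BCP, replicates 1, 2 and 3) the cells were living, and in the sham group (sBCP, replicates 1, 3 and 4) they had been boiled. Lumbar ganglia L3 to L5 of the same side were collected on day 17, and polyadenylated RNA was sequenced. The labels do not give age or sex, nor whether each sample came from 1 animal or a pool, so p-values reflect only the spread from sample to sample, whether technical or between animals.

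As background, semaphorins act through plexins, and most class 3 members, which are secreted, also need a neuropilin as co-receptor. Ephrins are tied to the membrane, A-type by a lipid anchor and B-type by a transmembrane segment, and bind Eph receptor tyrosine kinases on neighbouring cells. Netrins attract or repel through Dcc and Unc5 receptors, and Slits act through Robo receptors. In the embryonic ganglion these cues sort and branch sensory axons. In the adult ganglion neurons, satellite glia, Schwann cells, fibroblasts and endothelial cells all express some of them.

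Most guidance genes were at a low to moderate level in both groups, and no member passed the test between BCP and sBCP. By mean FPKM over the 6 samples, 2 members were at 50 or above, 18 between 10 and 50, 32 between 1 and 10, and 14 under 1. Semaphorins took 63.1%, 60.2% and 60.6% of the summed FPKM of the 66 genes in BCP replicates 1, 2 and 3, and 59.5%, 59.9% and 60.8% in sBCP replicates 1, 3 and 4. Sema3b, the most abundant member, supplied 27.9%, 24.8% and 26.6% in BCP and 26.2%, 24.7% and 24.9% in sBCP.

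Of 3 genes that stand for the set by name, Nrp1, Sema3a and Epha4, only Nrp1 reached the level needed for testing. Sema3a, the classical secreted repellent of sensory axons, was listed at 0 in BCP replicate 1 and at 0.0414 and 0.0353 FPKM in BCP replicates 2 and 3, and was listed at 0 in sBCP replicate 1 and at 0.118 and 0.0194 FPKM in sBCP replicates 3 and 4. Epha4, an Eph receptor that binds ephrins of both types, was at 0.797, 0.994 and 0.838 FPKM in BCP, against 0.816, 0.702 and 0.837 FPKM in sBCP. Both were thus near or below the limit of what was tested in every sample. An exact 0 in this table can be a failed estimate, since 19 features above 20 FPKM in 1 sample were listed at 0 in another.

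**Figure D1:**
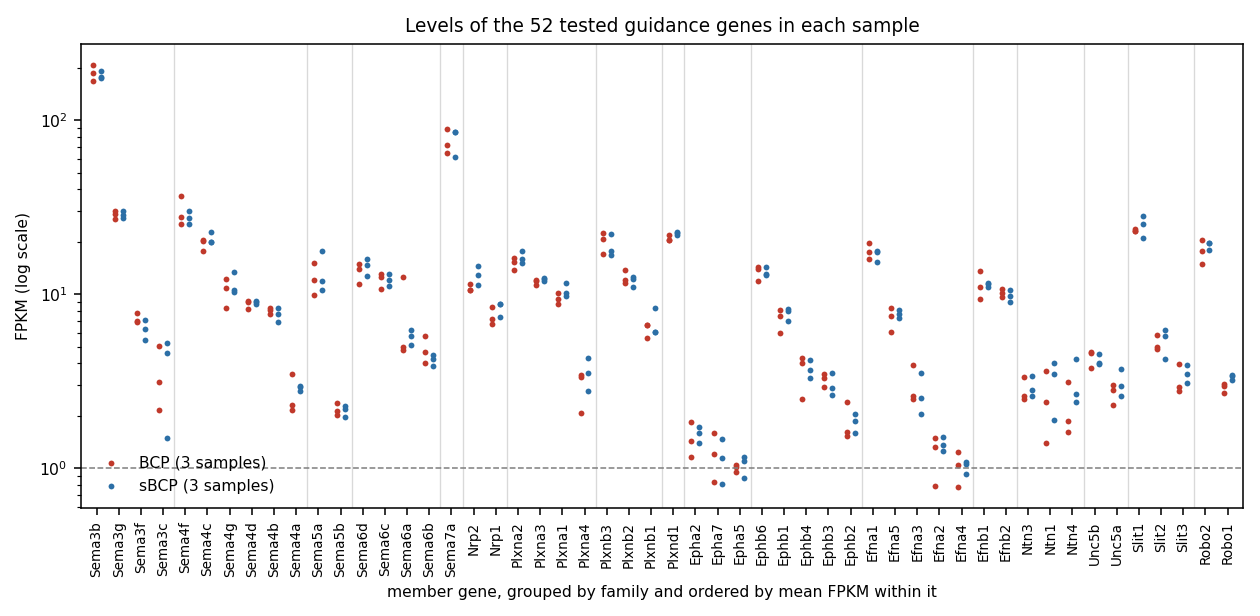
FPKM on a log axis of the 52 tested guidance genes, grouped by family, with 1 point per sample, BCP left of sBCP for each gene. Sema3b and Sema7a lie above all other genes in every sample, the EphA receptors near the dashed line at 1 FPKM, and the points of the 2 groups lie close together for most genes.

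The regions just before the transcription start are shown for Sema7a, the most abundant member with an entry in the sequence table, for Plxnd1, whose groups did not overlap, for Nrp2, which had the smallest unadjusted p, and for Epha3, among the lowest members. These 4 were chosen after their values were seen. The sequences are RefSeq's, build GRCr8, 250 bases before the start, 5′ to 3′ on the gene's strand. Capitals mark GGGCGG or its reverse complement CCGCCC, the GC box that transcription factors of the Sp family can bind.
Sema7a, GRCr8 chr8:67244068-67244317, strand +: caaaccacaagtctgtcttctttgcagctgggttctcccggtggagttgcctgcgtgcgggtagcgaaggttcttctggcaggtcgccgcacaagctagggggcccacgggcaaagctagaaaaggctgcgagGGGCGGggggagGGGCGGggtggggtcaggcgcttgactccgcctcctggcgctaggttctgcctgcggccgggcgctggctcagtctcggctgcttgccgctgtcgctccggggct
Plxnd1, GRCr8 chr4:150715188-150715437, strand -: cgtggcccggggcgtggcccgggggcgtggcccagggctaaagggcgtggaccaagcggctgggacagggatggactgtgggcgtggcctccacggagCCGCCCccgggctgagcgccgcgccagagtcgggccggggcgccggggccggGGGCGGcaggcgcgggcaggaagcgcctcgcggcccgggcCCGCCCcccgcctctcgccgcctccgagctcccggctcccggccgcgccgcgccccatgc
Nrp2, GRCr8 chr9:71617004-71617253, strand +: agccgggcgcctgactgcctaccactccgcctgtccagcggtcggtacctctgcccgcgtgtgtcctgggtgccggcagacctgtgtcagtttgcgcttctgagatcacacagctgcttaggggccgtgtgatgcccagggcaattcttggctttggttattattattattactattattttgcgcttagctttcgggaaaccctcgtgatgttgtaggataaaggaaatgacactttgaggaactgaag
Epha3, GRCr8 chr11:14920426-14920675, strand -: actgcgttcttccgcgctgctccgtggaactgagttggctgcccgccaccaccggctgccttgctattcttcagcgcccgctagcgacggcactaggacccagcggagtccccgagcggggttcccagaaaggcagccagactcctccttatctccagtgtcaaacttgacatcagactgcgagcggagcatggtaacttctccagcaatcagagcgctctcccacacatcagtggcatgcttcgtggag
Sema7a held 2 such boxes and Plxnd1 3, and Nrp2 and Epha3 had no match. Over the 51 members matched by symbol, the GC box on either strand was present in 28, or 54.9%, against 60.1% of the promoters of 9552 tested features and 30.5% of all 33469 promoters in the table. The share was 54.8% in the 42 tested members and 55.6% in the 9 members that were not tested. CCAAT on either strand was in 17 of the 51, or 33.3%, against 35.3% for the tested features. TATAAA on either strand was in 0 of the 51, against 6.17% for the tested features. The median GC content of the 51 was 63.6%, and 60.8% over the tested features. Robo1 has 2 starts in the table, and the first was used.

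Between BCP and sBCP, limma on log2(FPKM + 1) called 0 of the 52 tested members higher and 0 lower at a Benjamini-Hochberg adjusted p under 0.05, with 0 at an unadjusted p under 0.05. Over all 13710 tested features the same test called 25, or 0.182%, which were 2 higher (0.0146%) and 23 lower (0.168%), and 1.98% were at an unadjusted p under 0.05. The adjusted p was 1.00 for every member. The differences ran from -0.36 for Ntn4 to 0.22 for Sema6a on the log2 scale, where a difference understates the change of low genes. Of the 52, 36 were below 0 and 16 above, and the median was -0.04, against -0.01 over all tested features, 54.5% of which were below 0. That split depended on scaling, with 31 members below 0 after median-ratio rescaling and 30 after quantile normalization. It also moved with array weights, to 30 below 0, and with 1 sample left out, to between 30 and 35.

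The intervals bound what these samples could hide. The 95% interval of the difference lay within 1 log2 unit of 0, a change of less than 2-fold on the log2(FPKM + 1) scale, for all 52 members, as it did for 94.7% of all tested features. It lay within 0.5 units for 43 of the 52, or 82.7%, against 71.2% of all tested features. The median within-group SD was 0.158 for the members and 0.149 over all tested features. The widest intervals were those of Sema3c (from -0.96 to 0.87), Sema6a (from -0.53 to 0.97), Ntn1 (from -0.96 to 0.43) and Ntn4 (from -0.91 to 0.19). The interval does not show that a gene was unchanged.

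**Figure D2:**
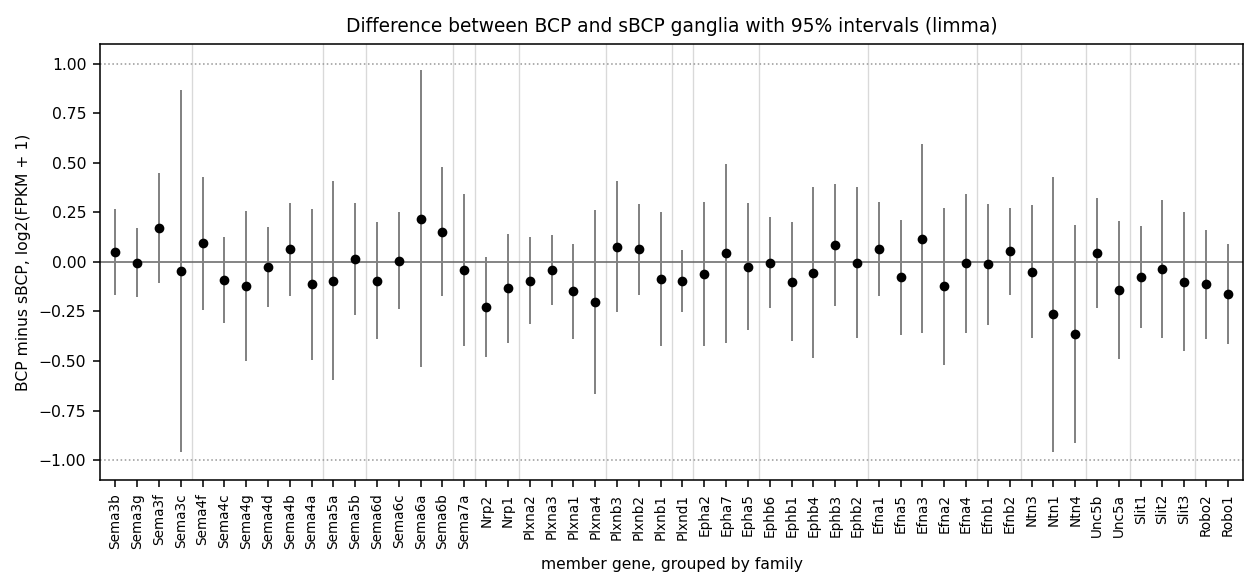
Difference between BCP and sBCP on the log2(FPKM + 1) scale for the 52 tested guidance genes, grouped by family, with 95% intervals from limma (3 samples per group). Every interval crosses 0 and lies between the dotted lines at -1 and 1.

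Among the class 3 semaphorins, the secreted ligands, 4 of 7 were tested, 2 above 0 and 2 below. Sema3b was at 207, 169 and 187 FPKM in BCP, against 191, 177 and 175 FPKM in sBCP. Its difference was 0.05 with an SE of 0.09 and an interval from -0.17 to 0.27, and the groups overlapped. Sema3f, a ligand of Nrp2, was at 7.78, 6.89 and 6.98 FPKM in BCP and 6.35, 7.16 and 5.46 FPKM in sBCP. BCP averaged 7.21 ± 0.491 FPKM and sBCP 6.32 ± 0.849 (SD, n = 3 each), a difference of 0.17 (SE 0.12, limma adjusted p = 1.00), which was 0.0842 without sBCP replicate 4. Sema3g was even between samples, at 27.1 to 29.9 FPKM in BCP and 27.3 to 30.2 FPKM in sBCP. Sema3d, Sema3e and Sema3a stayed under 1 FPKM in every sample.

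The membrane-bound semaphorins of classes 4 to 7 were all 13 tested, with 6 above 0, 7 below and none called. Sema7a, which is held by a lipid anchor and signals through plexin C1 and integrins, was at 88.5, 64.9 and 71.6 FPKM in BCP and 61.4, 85.0 and 86.0 FPKM in sBCP. Its lowest value was in sBCP replicate 1 and its highest in BCP replicate 1, so the spread within each group was larger than the difference of -0.04 (interval from -0.43 to 0.34). Summed FPKM of 7 sensory neuron markers was likewise lowest in sBCP replicate 1, at 7853, 7620 and 6988 in BCP and 6057, 6988 and 7971 in sBCP. The order of the other samples differed, as BCP replicate 2 was next lowest in Sema7a but not in that sum. The sum of 5 satellite glia markers was also lowest in sBCP replicate 1, at 2951, 2937 and 2847 in BCP and 2682, 2831 and 2984 in sBCP. Most of that sum was Apoe, at 2655 to 2766 FPKM in BCP and 2496 to 2799 FPKM in sBCP. Apoe and Fabp7 were lowest in sBCP replicate 1, whereas Glul and Kcnj10 were not and Cadm2 was highest there. Whether the neurons' share of the RNA bears on Sema7a was not tested, and in bulk samples fewer cells of a type and less RNA per cell cannot be told apart. Sema4f, next in level, was at 27.7, 36.7 and 25.2 FPKM in BCP and 25.3, 27.5 and 29.9 FPKM in sBCP, highest in BCP replicate 2 and otherwise mixed between groups. Sema4d, a ligand of plexin B1, was among the steadiest, at 8.21 to 9.20 FPKM in BCP and 8.78 to 9.11 FPKM in sBCP. Sema5a was among the most variable, at 12.1, 9.92 and 15.1 FPKM in BCP and 17.8, 11.9 and 10.6 FPKM in sBCP. Of the rest, Sema4c, Sema4g, Sema6c and Sema6d lay between 8.28 FPKM and 22.7 FPKM, Sema4b between 6.91 FPKM and 8.35 FPKM, and Sema4a and Sema5b between 1.97 FPKM and 3.50 FPKM over all samples. Sema6b, a transmembrane semaphorin, averaged 4.80 ± 0.871 FPKM in BCP and 4.19 ± 0.325 FPKM in sBCP (SD, n = 3 each), a difference of 0.15 with an SE of 0.14. The Sema6b difference rested on BCP replicate 1 and was 0.0394 without it.

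Sema6a, a transmembrane ligand of plexins A2 and A4, was singled out after its values were seen. It was at 4.77, 12.5 and 5.00 FPKM in BCP, against 5.78, 6.24 and 5.08 FPKM in sBCP. BCP replicate 2 stood above every other sample, and the other 2 BCP samples were below all 3 sBCP samples. The difference of 0.22, the highest of all members, was -0.18 without that library. The same library held the highest value of each of 7 axon injury markers. One of them, the transcription factor Atf3, had 7.57, 40.8 and 3.72 FPKM in BCP, against 3.77 to 7.19 FPKM in sBCP. The summed FPKM of 7 axon injury markers was 268, 740 and 250.3 in BCP and 254, 262 and 284 in sBCP. The macrophage marker sum was also highest in BCP replicate 2, at 58.0 FPKM, against 13.1 to 30.8 FPKM in the other samples. The part of injury or of macrophages in the Sema6a value was not tested.

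The receptors of semaphorins were 8 plexins and 2 neuropilins, all tested, with 2 above 0 and 8 below and none called. Nrp2, the co-receptor of Sema3f, had the smallest unadjusted p of all members (0.0722). It was at 10.5, 11.5 and 10.5 FPKM in BCP and 14.6, 12.8 and 11.3 FPKM in sBCP, and the groups overlapped between BCP replicate 2 and sBCP replicate 4. BCP averaged 10.8 ± 0.536 and sBCP 12.9 ± 1.67 FPKM (SD, n = 3 each), a difference of -0.23 (SE 0.11, interval from -0.48 to 0.03, limma adjusted p = 1.00). Without sBCP replicate 1, the sample highest in Nrp2, the difference was -0.14. Nrp1, a co-receptor of class 3 semaphorins and of vascular endothelial growth factor, was at 7.23, 8.47 and 6.76 FPKM in BCP and 8.76, 8.73 and 7.38 FPKM in sBCP. Its difference was -0.13 with an interval from -0.41 to 0.14, and ran from -0.07 without BCP replicate 3 to -0.21 without BCP replicate 2.

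Plxnd1, a receptor of Sema3e known from vessels and neurons, was at 21.8, 20.4 and 20.6 FPKM in BCP and 21.9, 22.8 and 22.5 FPKM in sBCP. All 3 BCP samples lay below all 3 sBCP samples, but by a small margin, with a difference of -0.10 (SE 0.07, adjusted p = 1.00 by limma). Plxnb3, a receptor of Sema5a, was at 20.6, 17.0 and 22.4 FPKM in BCP and 22.3, 17.8 and 16.7 FPKM in sBCP. All 4 class A plexins had differences below 0, also after both rescalings, from -0.04 for Plxna3 to -0.20 for Plxna4. Plxnb2 and Plxna3 lay between 11.0 FPKM and 13.8 FPKM in all samples, and Plxnb1, the receptor of Sema4d, between 5.58 FPKM and 8.33 FPKM. Plxna1 averaged 9.42 ± 0.703 FPKM in BCP and 10.6 ± 0.995 in sBCP, and Plxna2 15.1 ± 1.16 FPKM in BCP and 16.2 ± 1.25 FPKM in sBCP samples (SD, n = 3 each). Plxna4, which transmits class 3 signals in sensory neurons, was at 3.36, 2.07 and 3.42 FPKM in BCP and 4.30, 3.53 and 2.77 FPKM in sBCP, lowest in BCP replicate 2. Without BCP replicate 2 the median difference of the 4 class A plexins was -0.03, against -0.12 with all samples.

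**Figure D3:**
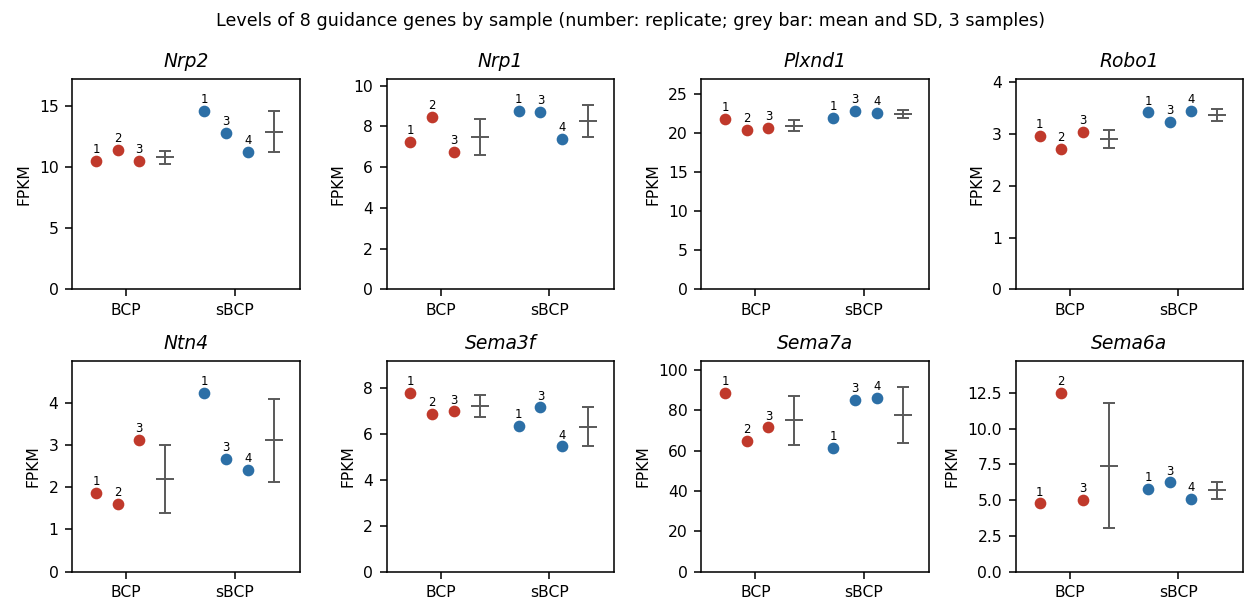
FPKM by sample for 8 guidance genes, BCP left of sBCP, each point labelled with its replicate number, with the mean and SD of 3 samples in grey. The BCP and sBCP points do not overlap for Plxnd1 and Robo1 and overlap for the other genes, and Sema6a is set apart by BCP replicate 2 at 12.5 FPKM.

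Of 13 Eph receptors 8 were tested, all 5 EphB and 3 of 8 EphA, with 2 above 0 and 6 below. The EphA family was faint, with a summed level of 6.39 to 6.52 FPKM in BCP and 5.98 to 7.20 FPKM in sBCP over its 8 genes. The 5 EphB genes together stood at 27.8 to 31.6 FPKM in BCP and 29.1 to 31.0 FPKM in sBCP. Ephb6, a receptor without kinase activity, was at 14.3, 11.9 and 14.0 FPKM in BCP and 14.3, 12.8 and 13.0 FPKM in sBCP. Ephb1 was at 8.14, 6.01 and 7.50 FPKM in BCP and 7.03 to 8.26 FPKM in sBCP, a difference of -0.10 (interval from -0.40 to 0.20). It was lowest in BCP replicate 2 and otherwise overlapped between groups. Ephb2, Ephb3 and Ephb4 lay between 1.54 FPKM and 4.28 FPKM over all samples, and Epha2 and Epha7 between 0.816 FPKM and 1.86 FPKM.

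Of 8 ephrins 7 were tested, with 3 above 0 and 4 below. Efna1, the most abundant A-type ephrin, was at 17.6, 19.6 and 15.9 FPKM in BCP and 15.4, 17.7 and 17.5 FPKM in sBCP, a difference of 0.06 (SE 0.10). Efnb1 was at 11.0, 13.6 and 9.41 FPKM in BCP and 11.0, 11.6 and 11.4 FPKM in sBCP, with means of 11.3 in each group. Efnb2, a transmembrane ephrin, was at 9.68 to 10.8 FPKM in BCP and 9.04 to 10.6 FPKM in sBCP. Efna5 was at 6.07 to 8.31 FPKM in BCP and 7.33 to 8.07 FPKM in sBCP, and Efna3 and Efna2 stayed under 4 FPKM. The direction of these near-zero differences is not established, and Efnb1 changed sign under both rescalings. After rescaling, 2 of the 5 EphB genes were below 0, against 4 without.

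The filter runs through the EphA and ephrin families. Just inside it were Efna4, at 0.782, 1.24 and 1.05 FPKM in BCP and 1.08, 1.06 and 0.928 FPKM in sBCP, and Epha5, at 0.956 to 1.05 FPKM in BCP and 0.882 to 1.16 FPKM in sBCP. Just outside were Epha8, at 0.923, 0.627 and 1.13 FPKM in BCP and 0.828 to 0.862 FPKM in sBCP, and Epha10, at 0.738 to 0.955 FPKM in BCP and 0.837 to 0.993 FPKM in sBCP. The other 12 untested members were Epha4, Unc5c, Efnb3, Sema3e, Robo4, Sema3d, Robo3, Ntn5, Unc5d, Epha3, Epha1 and Sema3a, with means from 0.0357 FPKM for Sema3a to 0.831 FPKM for Epha4. Robo4, a Robo known from endothelium, was listed at 0 in BCP replicates 1 and 2 and reached 0.961 FPKM in BCP replicate 3, while sBCP replicate 1 was listed at 0 and sBCP replicates 3 and 4 had 0.234 and 0.217 FPKM.

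Netrins and their Unc5 receptors were low, with 5 of 8 genes tested, 1 above 0 and 4 below, and none called. Ntn4, a netrin of basement membranes, was at 1.86, 1.61 and 3.12 FPKM in BCP and 4.22, 2.67 and 2.41 FPKM in sBCP. BCP averaged 2.20 ± 0.806 and sBCP 3.10 ± 0.979 FPKM (SD, n = 3 each), and the difference of -0.36 (SE 0.23, limma adjusted p = 1.00) was the lowest of all members. BCP replicate 3 lay above 2 of the sBCP samples, so the groups overlapped. The Ntn4 difference was -0.56 without BCP replicate 3, -0.23 without BCP replicate 2 and -0.18 without sBCP replicate 1. Another member was the lowest without BCP replicate 2 or sBCP replicate 4 (Ntn1, -0.49 and -0.50) and without sBCP replicate 1 (Unc5a, -0.23). Unc5b was at 4.66, 4.58 and 3.78 FPKM in BCP and 4.55, 4.02 and 3.95 FPKM in sBCP, a difference of 0.04 (SE 0.12). Unc5a was at 3.00, 2.81 and 2.32 FPKM in BCP and 2.61, 2.97 and 3.73 FPKM in sBCP, a difference of -0.14 (SE 0.15), or -0.0333 without sBCP replicate 4. Ntn3 was at 2.50 to 3.32 FPKM in BCP and 2.59 to 3.40 FPKM in sBCP. The netrin receptor Dcc, outside the set, was at 0.0383 to 0.105 FPKM in BCP and 0.0718 to 0.148 FPKM in sBCP and was not tested, while its relative Neo1 was at 8.99 to 10.6 FPKM in BCP and 8.94 to 11.4 FPKM in sBCP.

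Slits and Robos had 5 of 7 genes tested, all with differences below 0, also after both rescalings, and none called. Robo1 was at 2.96, 2.71 and 3.03 FPKM in BCP and 3.41, 3.22 and 3.44 FPKM in sBCP, so that every BCP sample lay below every sBCP sample. BCP averaged 2.90 ± 0.169 and sBCP 3.36 ± 0.116 FPKM (SD, n = 3 each), a difference of -0.16 (SE 0.11, interval from -0.41 to 0.09, limma adjusted p = 1.00). Robo2, the more abundant of the pair, was at 17.7, 15.0 and 20.4 FPKM in BCP and 19.7, 19.6 and 17.8 FPKM in sBCP. Its difference was -0.11 with an SE of 0.12, and the highest and the lowest sample were both BCP. Without BCP replicate 2, the lowest, the Robo2 difference was -0.0059, and without BCP replicate 3, the highest, it was -0.22. Slit1, the most abundant Slit, was at 23.1, 23.8 and 23.0 FPKM in BCP and 21.0, 25.2 and 28.2 FPKM in sBCP, and its sign depended on sBCP replicate 4, with a difference of -0.08 (SE 0.11) with that sample and 0.0173 without it. Slit2 was at 4.87 to 5.81 FPKM in BCP and 4.26 to 6.26 FPKM in sBCP, and Slit3 at 2.77 to 3.95 FPKM in BCP and 3.07 to 3.92 FPKM in sBCP.

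Plxnd1 and Robo1 were the 2 of the 52 tested members, 3.85%, whose groups did not overlap, both lower in BCP. Over all tested features 5.4% did not overlap, 3.06% with BCP lower and 2.34% with BCP higher. The members' share is thus near or under the background. With 5 samples the counts were 7 without BCP replicate 2, 6 without BCP replicate 3, 4 without sBCP replicate 3 and 8 without sBCP replicate 4, where all tested features gave 12.9%, 16.3%, 9.78% and 20.4%. The counts were lower without BCP replicate 1 or sBCP replicate 1, where all tested features gave 11.8% and 12.1%.

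By sample, sBCP replicate 1 was the highest of 6 for 16 of the 52 tested members, or 30.8%, and BCP replicate 2 the lowest for 19, or 36.5%. Over all tested features these shares were 28.5% and 16.1%. The summed FPKM of 6 Schwann cell markers was also highest in sBCP replicate 1 and lowest in BCP replicate 2. It was 9157, 6483 and 7962 in BCP and 10289, 7871 and 8427 in sBCP. The satellite glia sum, most of it Apoe, was instead lowest in sBCP replicate 1, though not every marker of that list was. The part of either cell type in the members' values was not tested. The median deviation of the members from their own mean was 0.01, -0.03 and -0.02 in BCP replicates 1, 2 and 3 and 0.08, 0.03 and -0.03 in sBCP replicates 1, 3 and 4, on the log2(FPKM + 1) scale.

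**Figure D4:**
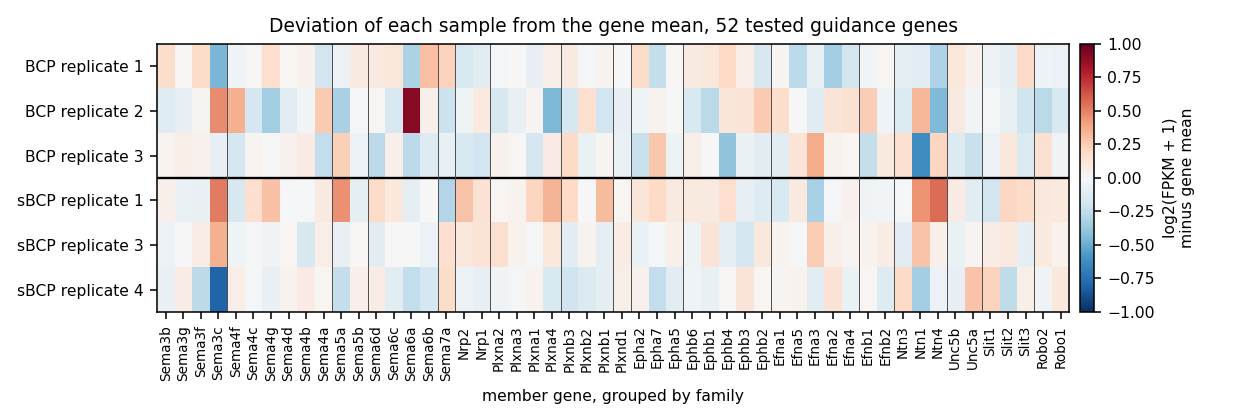
Deviation of each sample from the gene's mean over 6 samples on the log2(FPKM + 1) scale for the 52 tested guidance genes, with BCP samples above the line and sBCP samples below it. The strongest colours are Sema6a in BCP replicate 2 (0.91) and Sema3c in sBCP replicate 4 (-0.80), and the shades of Plxnd1 and Robo1, whose groups did not overlap, are faint.

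Sema3c and Ntn1, singled out after their values were seen, shared their 3 highest samples. The lowest sample was sBCP replicate 4 for Sema3c and BCP replicate 3 for Ntn1. Sema3c, a secreted semaphorin, was at 2.17, 5.03 and 3.12 FPKM in BCP and 5.24, 4.57 and 1.50 FPKM in sBCP. Ntn1, the founding netrin, was at 2.42, 3.62 and 1.39 FPKM in BCP and 4.01, 3.49 and 1.91 FPKM in sBCP. For both genes BCP replicate 2 and sBCP replicates 1 and 3 were the 3 highest samples. The summed FPKM of 5 fibroblast markers was also highest in those samples, at 196, 302 and 171 in BCP and 327, 289 and 204 in sBCP, with no marker at 0. The macrophage and endothelial marker sums, given below, had the same 3 highest samples. The endothelial sum had them by a small margin, and none of its markers had them alone. Dpt of the fibroblast list and Cd68 of the macrophage list did not follow. The pericyte and smooth muscle sum had other top samples, at 64.5, 45.0 and 40.6 FPKM in BCP and 80.7, 73.0 and 46.5 FPKM in sBCP. The pattern was thus not particular to the fibroblast markers, but not every list had it. The part of these cell types in the 2 genes was not tested. The differences were -0.05 for Sema3c and -0.26 for Ntn1, and that of Ntn1 was -0.0194 without BCP replicate 3.

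Further values of the whole series bear on these results. All sensory neuron markers were expressed in every sample, as the tissue label has it. Prph was at 1208 to 1347 FPKM in BCP and 1086 to 1323 FPKM in sBCP. Isl1, the lowest of them, was at 16.5 to 17.9 FPKM in BCP and 15.4 to 19.8 FPKM in sBCP. Skeletal muscle markers were lower in BCP, with all 5 tested members of that list called by limma and a summed level of 13.3 to 20.03 FPKM in BCP and 457 to 806 FPKM in sBCP, none at 0. Its part in the members with lower values in BCP was not tested. Macrophage markers summed to 23.0, 58.0 and 13.1 FPKM in BCP and 24.4, 30.8 and 19.3 FPKM in sBCP. The endothelial markers summed to 14.7 to 20.3 FPKM in BCP and 13.9 to 18.5 FPKM in sBCP, with Cldn5 listed at 0 in every sample.

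Other genes of the guidance pathway, such as adhesion co-receptors and kinases, were read from a list of 56 genes in the table, 54 of them tested. None was called, with 28 above 0 and 26 below and a median difference of 0.00. Of the 54, 1 was at an unadjusted limma p under 0.05, where 1.98% of all tested features were so. That gene was Fyn, a Src-family kinase downstream of plexins and Eph receptors, at 28.3, 30.8 and 27.7 FPKM in BCP and 34.3, 33.2 and 32.5 FPKM in sBCP. Every BCP sample lay below every sBCP sample, with a difference of -0.20 (SE 0.07, interval from -0.36 to -0.03, limma adjusted p = 1.00). Vav2, an exchange factor recruited by Eph receptors, averaged 16.1 ± 0.969 FPKM in BCP and 18.3 ± 0.941 in sBCP, and Dpysl3, a collapsin response mediator protein, 80.5 ± 1.68 FPKM in BCP and 86.7 ± 0.310 FPKM in sBCP samples (SD, n = 3 each). Cntn2, an axonal adhesion protein, averaged 46.6 ± 4.48 FPKM in BCP and 52.5 ± 3.07 in sBCP. The groups overlapped for Cntn2. They did not overlap for 4 of the 54, which were Fyn, Vav2, Dpysl3 and Srgap1, all lower in BCP. Over all tested features 5.4% did not overlap in either direction, and 3.06% with BCP lower.

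The authors' deposited table marked 152 features as significant and none of the 66 guidance genes (0). The smallest p-value of a member in the authors' deposited table was 0.107, and its q-value was 1. There, 7 members overlap another feature on the same strand and 5 on the other strand. These overlaps are of whole gene spans. They include Epha1, an untested member, and Zyx on the other strand, with Zyx at up to 37.0 FPKM. Without a stated strand setting the reads of pairs on opposite strands cannot be told apart. Every other overlapping feature stayed at or under 0.834 FPKM.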

How the data were processed

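Polyadenylated RNA of 3 BCP and 3 sBCP ganglion samples was sequenced in pairs, per the labels' protocols. The authors deposited FPKM values per gene and sample, and with each gene the authors' p-value and q-value are listed. Their test, aligner, genome build and use of strand are not given in the sources used here. Absolute depth is unknown. The most frequent ratio of low values (single-transcript features under 0.5 FPKM, bins of 0.01 on the log2 scale) put the depth of the other samples at 1.11 to 1.31 times that of BCP replicate 1. No pair of samples had identical values (0 pairs).

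A feature entered the test at 1 FPKM or more in at least 3 samples. Tests were run on log2(FPKM + 1), pseudocount 1, with limma 3.58.1 in R 4.3.3 (moderated, variance trend, no covariate, two-sided, Benjamini-Hochberg over all 13710). Each result was recomputed with other pseudocounts, low-value filters, rescalings, variance models and sample weights, with a replicate block, and without each sample. The members and lists were chosen with earlier results of these data known, so lists get counts and medians and no test. The genes named are Nrp1, Sema3a and Epha4, the 2 most abundant of each of 6 role groups, the 10 tested members of smallest unadjusted p, those with groups that do not overlap, and the 4 pathway genes of smallest p. A few others were added as examples after their values were seen. Figures were drawn with matplotlib 3.10.9.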

Additional observations from a re-analysis of the deposited data

How the results depend on the processing

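No member was called under any of the 16 alternatives, that is with pseudocounts of 0.1 and 0.01, no filter or a filter on the mean, both rescalings, 3 variance or weight models, the replicate block or any 1 sample left out (0 members higher and 0 lower in each, limma). The lowest adjusted p of a member was 0.529, for Nrp2 with array weights, which had not converged. Without 1 sample, Nrp2 had an unadjusted p of 0.0202 without sBCP replicate 4 (adjusted p = 0.866), and Ntn4 of 0.0416 without BCP replicate 3 (adjusted p = 0.992), the adjusted p ranging up to 1. Without 1 sample the Nrp2 difference ran from -0.314 to -0.141 and that of Ntn4 from -0.560 to -0.176, both smallest in size without sBCP replicate 1. Members whose groups did not overlap numbered 2 with all samples and 3 to 8 with 1 sample left out. Over all tested features the shares were 5.4% and 9.78% to 20.4%. The counts with 1 sample left out were computed only after the data had been seen.

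Over all features, 2 higher and 23 lower calls became 1 higher with no filter, 4 higher and 35 lower with array weights, and 0 to 4 higher and 6 to 20 lower with 1 sample left out. Numbers 1 and 3 occur in both groups, and same-numbered samples' deviations correlated at 0.06 and -0.10. Samples of unlike number were not set beside these values, so they cannot show whether the numbers are pairs. The labels give no pairing, and the main test used none. With the replicate block, in which only the samples numbered 1 and 3 inform the difference, 10 features were called higher and 28 lower, and Ntn1 (-0.73, unadjusted p = 0.0145) and Sema3c (-0.70, 0.0214) led the members.

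Some named members changed sign, most of them with differences near 0, with the cause not tested. With rescaling by median ratio or quantiles, Ephb6 was at 0.0136 and 0.0129 and Efnb1 at 0.00469 and 0.00855. With array weights Ephb6 was at 0.0564, and with the replicate block Sema7a was at 0.138, Ephb6 at 0.0540, Unc5b at -0.0201, Slit1 at 0.00263 and Sema6a at -0.251. With 1 sample left out, the difference ran from -0.0255 to 0.124 for Sema3b, -0.198 to 0.0551 for Sema7a, -0.00500 to 0.195 for Plxnb3, -0.0491 to 0.0725 for Ephb6, -0.181 to 0.0109 for Ephb1, -0.00771 to 0.132 for Efna1, -0.140 to 0.104 for Efnb1, -3.31e-05 to 0.122 for Unc5b, -0.187 to 0.0173 for Slit1, and, for genes added after the data had been seen, -0.182 to 0.430 for Sema6a and -0.459 to 0.202 for Sema3c. Others kept their sign but moved by over 1.5 times, over ranges of -0.214 to -0.0699 for Nrp1, -0.216 to -0.00588 for Robo2, 0.0394 to 0.253 for Sema6b, 0.0842 to 0.252 for Sema3f, -0.331 to -0.0322 for Plxna4, -0.198 to -0.0791 for Plxna1, -0.141 to -0.0372 for Plxna2, -0.228 to -0.0333 for Unc5a, -0.499 to -0.0194 for Ntn1 and -0.227 to -0.0940 for Cntn2. Since absolute depth is unknown, no counting error could be given for values under 1 FPKM.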
